A study of Mus musculus with 62 samples.

Results

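The 10 genes described here, Gfap, Aqp4, Aldh1l1, Agt, Gja1, Gjb6, S100b, Aldoc, Slc1a2 and Slc1a3, are used as markers of astrocytes, and were taken by symbol from the 12483 genes counted in 2 tables of punched mouse brain. All 10 have a row in the table of the suprachiasmatic nucleus (SCN), which holds 12047 genes. In the table of the nucleus accumbens (NAc) and prefrontal cortex (PFC), which holds 11569 genes, 9 have a row, and Agt was not analysed in those regions. The study sequenced RNA from 62 libraries of 26 C57BL/6J mice, with 19 SCN, 26 NAc and 17 PFC libraries. Brains were taken at ZT6, that is 6 h after lights on, about 4 weeks after circadian rhythm disruption (CRD) or a control paradigm ended. Each of the groups compared is a region, and each region mixes control and CRD mice and both sexes. The labels' protocol names exposure in adolescence and in adulthood, while the study's methods for the sequenced tissue name adolescence alone. The labels of single libraries give only the region and the mouse number, so effects of CRD, age at exposure and sex were not tested. A punch is bulk tissue that holds neurons and other glia beside astrocytes.

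Astrocytes clear glutamate and potassium from the space around synapses, supply neurons with metabolites, and are joined to each other by gap junctions into networks. Some of their genes are used in nearly every astrocyte of the brain and serve as pan-astrocyte markers, such as Aldh1l1 and Slc1a3. Others are known to depend on the region: Gfap is strong in white matter, at the pial surface and in parts of the hypothalamus and weak in much of the grey matter, and Agt is best known from astrocytes of the hypothalamus and brainstem. Astrocytes of the SCN hold a circadian clock of their own, and the glutamate they release and take up is part of how the nucleus keeps time.

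By GENCODE M21 on GRCm38, all 10 are protein-coding genes. Gfap (ENSMUSG00000020932) lies at chr11:102887336-102900912 and Aldoc (ENSMUSG00000017390) on the same chromosome at chr11:78322968-78327781. Gja1 (ENSMUSG00000050953) lies at chr10:56377330-56402513 and S100b (ENSMUSG00000033208) at chr10:76253853-76261159. Aldh1l1 (ENSMUSG00000030088) lies at chr6:90486427-90600203, Agt (ENSMUSG00000031980) at chr8:124556534-124569706 and Gjb6 (ENSMUSG00000040055) at chr14:57123303-57133611. The glutamate transporter genes Slc1a2 (ENSMUSG00000005089) and Slc1a3 (ENSMUSG00000005360) lie at chr2:102658659-102790784 and chr15:8634124-8710764. Aqp4 has the identifier ENSMUSG00000024411. The counts cover exons, and 11.05% of the exon bases of Aldh1l1 are shared with the antisense gene Gm15756 and 1.439% of those of Slc1a2 with the antisense gene Gm13872. Whether the counting used strand is not given in the sources used here, so reads over those bases cannot be told apart.

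The starts of Gfap and Agt, the pair described as regional, and of Gjb6, which with Gfap differed most between the NAc and PFC, are shown as their RefSeq promoter windows on GRCm38.p6, from 250 bases before to 30 bases after the annotated start, all on the minus strand. The Gfap window is chr11:102897171-102897450, that of Agt is chr8:124569677-124569956 and that of Gjb6 is chr14:57133582-57133861. Capitals mark the palindrome TTCCNGGAA, the form of site that STAT factors are known to bind.
Gfap: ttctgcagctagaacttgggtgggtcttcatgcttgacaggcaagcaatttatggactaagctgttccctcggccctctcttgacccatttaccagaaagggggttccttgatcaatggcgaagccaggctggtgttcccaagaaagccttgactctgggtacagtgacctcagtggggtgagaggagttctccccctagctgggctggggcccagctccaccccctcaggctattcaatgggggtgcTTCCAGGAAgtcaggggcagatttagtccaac
Agt: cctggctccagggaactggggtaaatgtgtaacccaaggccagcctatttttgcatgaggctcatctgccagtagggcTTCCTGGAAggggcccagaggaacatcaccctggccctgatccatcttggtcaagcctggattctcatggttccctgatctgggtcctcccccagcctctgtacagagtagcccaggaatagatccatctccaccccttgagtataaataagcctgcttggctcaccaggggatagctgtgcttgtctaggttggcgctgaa
Gjb6: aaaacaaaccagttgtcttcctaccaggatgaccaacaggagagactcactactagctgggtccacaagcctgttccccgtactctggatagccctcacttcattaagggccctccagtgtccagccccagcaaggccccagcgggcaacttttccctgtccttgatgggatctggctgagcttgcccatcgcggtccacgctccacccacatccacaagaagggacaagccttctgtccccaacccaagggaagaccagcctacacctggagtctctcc

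The motif, which reads the same on both strands, starts at base -172 of Agt and at base -2 of Gfap, where base -1 is the last before the start. It was chosen after the windows had been searched. Of the 9 members with a RefSeq window, 1 more holds it, Aldoc, at base -83 of its second annotated start. Among all 32851 promoter windows of that length, 351 or 1.07% hold the motif. No match in the Gjb6 window says only that these letters are not in it.

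Total counts per library spanned 16496666 to 35389742 for the SCN, 28879724 to 60009482 for the NAc and 31216225 to 50333579 for the PFC. The lowest count of a member in any library was 94 reads, for Gfap in the NAc. The punches carried the genes of their region: a list of 5 striatal genes summed to 400.4 to 976 CPM (counts scaled to a common library size) in NAc libraries against 11.9 to 43.4 CPM in PFC libraries, and a list of 5 cortical genes to 10.9 to 431 CPM against 764 to 892 CPM. The SCN list summed to 81.2 to 449 CPM in the SCN. Some libraries stood apart from the rest of their region. In the SCN, J1199 and J1140 had the highest sums of the striatal list, with 244 and 125 CPM, the next being 36.3 CPM, and J1199 had the lowest sum of the SCN list. SCN J1165 had 47.2 CPM of Xist, while the NAc and PFC libraries of that mouse number had 0.617 and 0.390 CPM. The libraries of that number thus disagree, and which of them goes against its label is not known. SCN J1165 is among the SCN mice counted below. Without it every count of mice falls by 1 (18 mice with the NAc, 11 with the PFC) with as many exceptions as before. In the NAc, J1159 had 13.3% of its reads on ribosomal RNA-like genes, the highest share there, and J1199 had the highest sum of cortical genes. Leaving out the 3 SCN libraries, or NAc J1199, changed no call of a member, and NAc J1159 is given where it did.

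Levels are CPM scaled within each deposited table (TMM). Gfap, the intermediate filament protein of astrocytes, covered the widest range of the 10 in the SCN. Its lowest library was J1198 with 57.3 CPM and its highest J965 with 630 CPM, around a median of 151 CPM. Across NAc libraries it spanned 3.68 to 17.1 CPM (median 8.89 CPM) and across PFC libraries 16.7 to 59.9 CPM (median 30.5 CPM). The libraries of the SCN were thus all above those of the NAc. The PFC range overlapped at both ends: NAc J1016 lay inside it, and SCN J1198 lay below PFC J1019, the highest of the PFC. Mouse J1019 had both the lowest NAc level of Gfap and the highest PFC level.

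Agt, angiotensinogen, is the precursor from which renin releases angiotensin. Its lowest SCN library was J1157 with 121 CPM and its highest J1162 with 258 CPM, a 2.13-fold range around a median of 183 CPM. Its spread was thus narrower than that of Gfap in the same libraries. Per kilobase of exon, the scale on which genes can be compared, the median of Agt was 97.0 CPM per kb in the SCN. That was rank 2 of the 10, after Aldoc, the brain form of aldolase, at 146 CPM per kb, and ahead of Slc1a2 at 84.6 CPM per kb. The ranges of each pair of neighbours in the SCN order overlapped. The order went on with Slc1a3 (54.4), Gfap (35.8), S100b (33.5), Aqp4 (21.5), Gja1 (21.05), Gjb6 (13.1) and Aldh1l1 (8.02 CPM per kb).

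The order was another in the forebrain punches. Slc1a2, the main glutamate transporter of forebrain astrocytes (GLT-1), led in both, with medians of 165 CPM per kb (NAc) and 178 CPM per kb (PFC). Aldoc followed, with 79.3 and 94.0 CPM per kb. These came before Slc1a3, the transporter GLAST, at 28.4 and 30.4 CPM per kb, without overlap between the ranges of these 3 genes in either region. Gfap was the last of the 9 in the NAc, at 2.11 CPM per kb, next to Gjb6 at 2.35 CPM per kb. In the PFC, Gfap was at rank 7 of the 9 at 7.24 CPM per kb, and Aldh1l1 was the last at 5.48 CPM per kb. The ranges of Gfap and its neighbours overlapped in both regions.

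**Figure D1:**
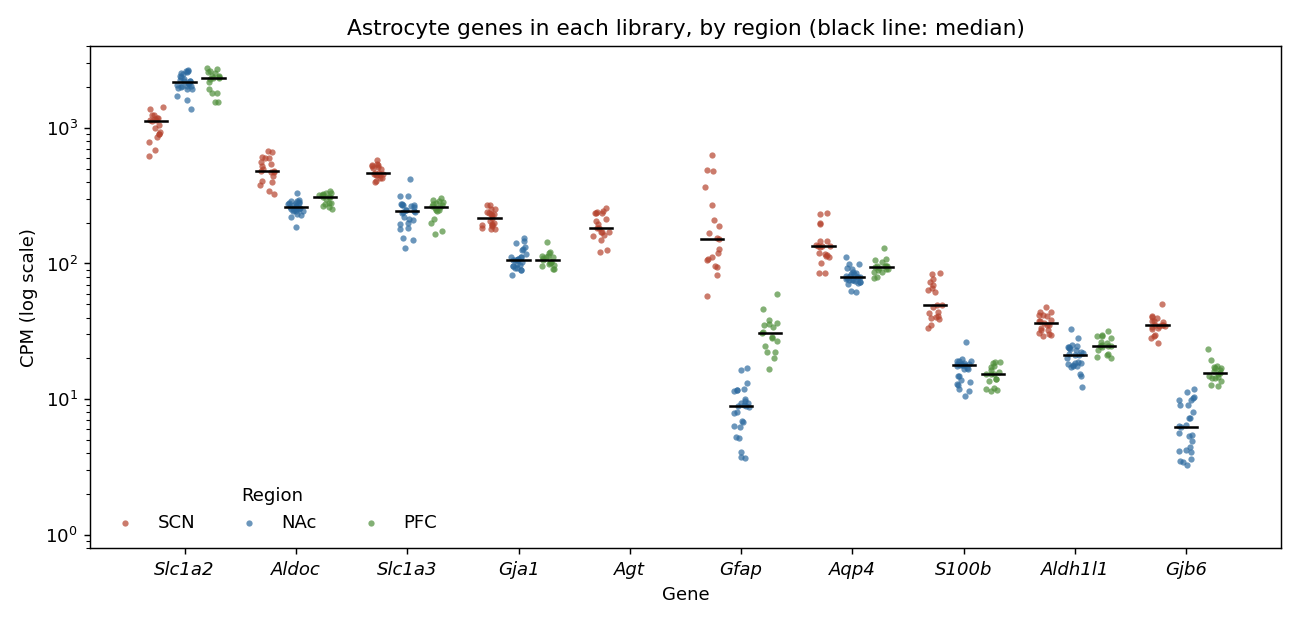
Level of each of the 10 genes in every library, in CPM on a log axis, with the regions in colour and the median of each as a black line. Gfap spans 57.3 to 630 CPM in the SCN and 3.68 to 17.1 CPM in the NAc, Slc1a2 is the one gene lower in the SCN than in both other regions, and Agt is shown in the SCN only.

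The NAc and PFC were compared within their common table, with edgeR's quasi-likelihood test and Benjamini-Hochberg adjustment over all 11569 genes. A gene was called when its adjusted p was under 0.05 and it differed by 1.2-fold or more. Gfap, Gjb6 and Aldh1l1 were lower in the NAc than in the PFC, and no member was higher. These were 3 of the 9 members, and 45.4% of all genes were called, 21.7% of all genes being lower in the NAc. The median log2 fold change of the 9 was -0.21, and that of all genes was 0.016. In bulk tissue, fewer astrocytes and less RNA of a gene per astrocyte cannot be told apart.

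From the Gfap levels given above, the NAc was 3.54-fold lower than the PFC, a log2 fold change of -1.82 ± 0.15 (SE, edgeR adjusted p = 2.6e-14). It was lower in the NAc in 17 of the 17 mice with both regions, and 25 of the 26 NAc libraries were below every PFC library. Without NAc J1199, the log2 fold change was -1.88. Gjb6, which encodes the astrocyte connexin Cx30, spanned 3.29 to 11.9 CPM across NAc libraries (median 6.28 CPM) and 12.5 to 23.3 CPM across PFC libraries (median 15.5 CPM). The libraries of the regions did not overlap, as for 9.50% of all genes. Gjb6 was 2.36-fold lower in the NAc, a log2 fold change of -1.24 ± 0.14 (SE, edgeR adjusted p = 1.05e-10), and was lower in 17 of 17 mice.

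Gja1, which encodes Cx43, the other connexin of astrocytes, spanned 82.5 to 154 CPM across NAc libraries (median 107 CPM) and 90.4 to 143 CPM across PFC libraries (median 106 CPM). The ranges overlapped nearly in full. The log2 fold change was 0.03, with a 95% interval from -0.097 to 0.16 (edgeR adjusted p = 0.698), and the NAc was higher in 7 of 17 mice. Both connexins form gap junctions between astrocytes. The interval of Gjb6, from -1.51 to -0.97, did not reach that of Gja1, and the difference between the 2 genes was not tested.

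Aldh1l1, a folate-pathway dehydrogenase, was at the edge of the call. It spanned 12.3 to 32.8 CPM across NAc libraries (median 21.2 CPM) and 20.1 to 31.6 CPM across PFC libraries (median 24.8 CPM). The regions overlapped, and the NAc was 1.21-fold lower, a log2 fold change of -0.27 ± 0.080 (SE, edgeR adjusted p = 0.0031), lower in 16 of 17 mice. The fold was under 1.2 without NAc J1159 (log2 fold change -0.26), when mitochondrial and rRNA-like genes were left out (-0.26), and within the upper range of mouse numbers, from J1140 on (-0.24).

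Aqp4, the water channel of astrocyte endfeet, and Aldoc passed the test but not the fold. Aqp4 spanned 61.7 to 112 CPM (median 79.2 CPM) across NAc libraries and 77.8 to 130 CPM (median 94.6 CPM) across PFC libraries, and its log2 fold change was -0.24 (edgeR adjusted p = 0.000406), with the NAc lower in 14 of 17 mice. Aldoc had medians of 259 and 307 CPM in these regions and a log2 fold change of -0.21 (edgeR adjusted p = 0.000214), with the NAc lower in 15 of 17 mice. The ranges of both genes overlapped between the regions.

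The glutamate transporters were close in the NAc and PFC. Slc1a2 had a median of 2167 CPM for the NAc against 2341 CPM for the PFC, and its log2 fold change was -0.05 with a 95% interval from -0.20 to 0.095 (edgeR adjusted p = 0.566). Slc1a3 had medians of 242 and 259 CPM, and its log2 fold change was -0.07 with an interval from -0.26 to 0.12 (edgeR adjusted p = 0.552). The NAc was higher in 7 and 4 of the 17 mice, respectively. S100b, a calcium-binding protein that mature oligodendrocytes are known to make as well, had medians of 17.7 and 15.3 CPM, and its log2 fold change was 0.14 with an interval from -0.028 to 0.30 (edgeR adjusted p = 0.154).

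Other cell types differed between these punches too. All 7 genes of the oligodendrocyte list were higher in the NAc, and the list summed to 564 to 1444 CPM there and to 130 to 401 CPM in the PFC, without overlap. In the meningeal and mural list, 5 of 6 genes were lower in the NAc, with sums of 65.1 to 119 CPM against 92.9 to 169 CPM in the PFC. In the microglia list, 0 of 6 genes were called, with sums of 139 to 189 CPM against 138 to 172 CPM. Of the 8 neuronal genes, 5 were lower and 1 higher in the NAc, and their sum was 784 to 2474 CPM against 2272 to 2996 CPM. Of the 5 endothelial genes, 1 was lower, with sums of 64.8 to 92.8 CPM against 61.1 to 103 CPM, and of the 3 genes of oligodendrocyte precursors, 1 was higher. The part of these cells in the differences of Gfap, Gjb6 and Aldh1l1 was not tested.

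**Figure D2:**
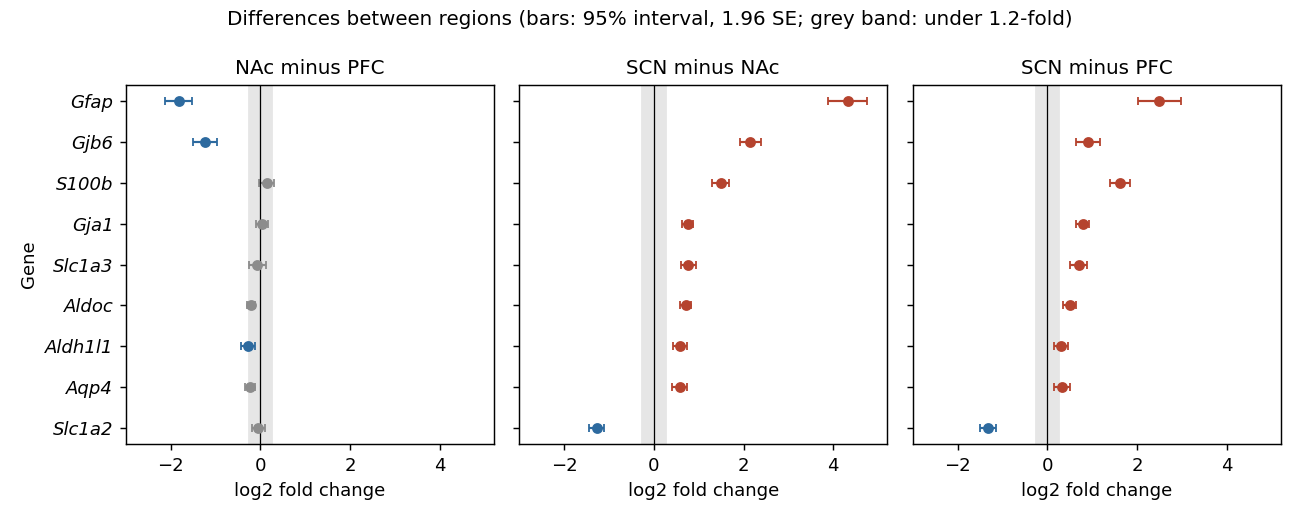
Log2 fold change of the 9 genes counted in all regions, with bars for 95% intervals, for NAc minus PFC, SCN minus NAc and SCN minus PFC; red is called higher, blue called lower and grey not called. Gfap is lowest at -1.82 for NAc minus PFC and highest at 4.32 for SCN minus NAc, and Slc1a2 is the one gene on the left of 0 for the SCN.

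The SCN was compared with the other regions over the 11133 genes with a row in both tables, in a single edgeR fit of all 62 libraries. Region cannot be told apart from table here, because the SCN libraries were filtered apart and had lower total counts. Their RNA also differed in make-up: ribosomal RNA-like genes took 8.96 to 19.3% of the SCN reads (median 16.2%), against medians of 2.52% (NAc) and 3.79% (PFC), and mitochondrial ribosomal RNA a median of 38.2% against 49.4% and 46.6%. Without mitochondrial and rRNA-like genes no SCN call of a member changed. The values of this comparison are CPM on the shared scale of that fit. Against the NAc, 8 of the 9 members were higher in the SCN and Slc1a2 was lower. Of all shared genes, 64.1% were called, 33.1% higher and 31.0% lower in the SCN. Against the PFC, the same 8 were higher and Slc1a2 was lower, and 64.7% of all genes were called, 33.7% higher. Both comparisons use the same SCN libraries. The median log2 fold change of the 9 was 0.76 against the NAc and 0.70 against the PFC, and that of all genes was 0.016 and 0.032.

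Gfap on the shared scale spanned 51.7 to 563 CPM across SCN libraries (median 136 CPM), 3.83 to 18.0 CPM across NAc libraries (median 9.32 CPM) and 17.6 to 62.9 CPM across PFC libraries (median 32.3 CPM). The SCN did not overlap with the NAc, as for 13.2% of all genes, and 1 SCN library fell inside the PFC range. Gfap was 20.0-fold higher in the SCN than in the NAc (log2 fold change 4.32 ± 0.22 SE, edgeR adjusted p = 5.39e-27, 19 of 19 mice). It was 5.64-fold higher than in the PFC (log2 fold change 2.50 ± 0.24 SE, edgeR adjusted p = 1.81e-14, 12 of 12 mice). Gjb6 spanned 23.2 to 45.3 CPM in the SCN, above every NAc library, whose highest was 12.7 CPM. It was 4.45-fold higher than in the NAc (log2 fold change 2.15, edgeR adjusted p = 4.38e-25, 19 of 19 mice) and 1.88-fold higher than in the PFC (log2 fold change 0.91, edgeR adjusted p = 1.17e-08, 12 of 12 mice).

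Slc1a2 went the other way. On the shared scale it spanned 561 to 1265 CPM across SCN libraries (median 1002 CPM), 1425 to 2799 CPM across NAc libraries and 1641 to 2918 CPM across PFC libraries. Every SCN library was below every library of the other regions, while 20.7% of all genes showed no overlap between the SCN and the PFC. Slc1a2 was 2.42-fold lower in the SCN than in the NAc (log2 fold change -1.28 ± 0.083 SE, edgeR adjusted p = 5.33e-22, lower in 19 of 19 mice) and 2.51-fold lower than in the PFC (log2 fold change -1.33 ± 0.089 SE, edgeR adjusted p = 2.58e-21, lower in 12 of 12 mice). The other glial glutamate transporter, Slc1a3, spanned 360.2 to 517 CPM across SCN libraries, 135 to 437 CPM across NAc libraries and 174 to 321 CPM across PFC libraries. It was 1.70-fold higher in the SCN than in the NAc (log2 fold change 0.77, edgeR adjusted p = 9.96e-13, 19 of 19 mice) and 1.62-fold higher than in the PFC, without overlap (log2 fold change 0.70, edgeR adjusted p = 1.09e-09, 12 of 12 mice). Of the other 3 Slc1a genes listed, the neuronal Slc1a1 was also lower in the SCN, with medians of 31.4 CPM against 59.5 and 60.3 CPM. Slc1a6 was higher, with 6.88 CPM against 1.71 and 2.60 CPM.

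S100b spanned 30.7 to 76.7 CPM on the shared scale in the SCN, above all libraries of the NAc, with at most 27.7 CPM, and of the PFC, with at most 20.0 CPM. It was 2.81-fold higher than in the NAc (log2 fold change 1.49, edgeR adjusted p = 5.66e-22, 19 of 19 mice) and 3.08-fold higher than in the PFC (log2 fold change 1.62, edgeR adjusted p = 8.04e-21, 12 of 12 mice). Gja1 was 1.69-fold and 1.72-fold higher in the SCN than in the NAc and PFC, in 19 of 19 and 12 of 12 mice, and its SCN libraries did not overlap with those of the PFC. Aldoc was 1.63-fold and 1.41-fold higher, in 19 of 19 and 11 of 12 mice.

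Aldh1l1 and Aqp4 differed least. Aldh1l1 was 1.495-fold higher in the SCN than in the NAc (log2 fold change 0.58, edgeR adjusted p = 2.67e-10, 19 of 19 mice) and 1.24-fold higher than in the PFC (log2 fold change 0.31, edgeR adjusted p = 0.000803, 12 of 12 mice). The call against the PFC was lost in the lower range of mouse numbers, up to J1021 (log2 fold change 0.29, edgeR adjusted p = 0.0823). Aqp4 was 1.49-fold higher in the SCN than in the NAc (log2 fold change 0.57, edgeR adjusted p = 7.82e-09, 17 of 19 mice) and 1.26-fold higher than in the PFC (log2 fold change 0.33, edgeR adjusted p = 0.00105, 9 of 12 mice). With the mouse as a replicate block, the Aqp4 difference from the PFC was 0.32 with an edgeR adjusted p of 0.0646 and was not called, and without mouse J1165 that adjusted p was 0.0954.

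Marker lists of other cells also moved with the SCN. Of the 7 oligodendrocyte genes, 2 were higher in the SCN than in the NAc and 7 than in the PFC, and their CPM within the SCN table summed to 411 to 3058 CPM. Of the 6 microglia genes, 5 were lower in the SCN than in each other region, with sums of 75.1 to 157 CPM in the SCN. Of the 6 meningeal and mural genes, 4 were higher and 1 lower in the SCN than in the NAc, and 1 was higher and 2 lower than in the PFC, with sums of 89.6 to 244 CPM. Of the 7 neuronal genes tested, 3 were higher and 4 lower in the SCN than in the NAc, and 2 were higher and 3 lower than in the PFC, with sums of 799 to 1556 CPM in the SCN. Of the 5 endothelial genes, 2 were lower than in the NAc and 3 than in the PFC, with sums of 51.3 to 87.7 CPM. Of the 3 genes of oligodendrocyte precursors, 1 was higher in each comparison. The 9 genes of ependymal cells, which line the ventricle beside the SCN, summed to 13.9 to 135 CPM in the SCN and were not analysed in the other regions. Their part in the differences of the members was not tested.

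A ratio of 2 genes in the same library depends little on how libraries or tables were scaled, so Gfap was also set against the pan-astrocyte gene Aldh1l1 within each library. The ratio of Gfap to Aldh1l1 CPM spanned 1.62 to 16.2 across SCN libraries (median 3.98), 0.158 to 0.754 across NAc libraries (median 0.415) and 0.784 to 2.48 across PFC libraries (median 1.23). Neither the SCN nor the PFC overlapped with the NAc. The mean log2 ratio was 3.50 higher in the SCN than in the NAc, 1.93 higher in the SCN than in the PFC and -1.57 for the NAc minus the PFC. In two-sided permutation tests each of the 3 adjusted p-values was 1e-05, the smallest that 100000 resamples can give. Within mice, the mean differences were 3.53 for SCN minus NAc, with 19 of 19 mice higher in the SCN, 2.20 for SCN minus PFC, with 12 of 12, and -1.49 for NAc minus PFC, with 0 of 17 higher in the NAc. Without mouse J1165 the SCN differences within mice were 3.53 (18 of 18 mice) and 2.26 (11 of 11 mice; exact sign-flip test, adjusted p = 2.29e-05 and 0.000977). Gfap thus differed between regions beyond Aldh1l1. Against Slc1a3 as the reference, the differences were 3.30, 1.53 and -1.77 in the same order.

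The other members, set against Aldh1l1 in the same way, are given as a description. Aqp4 kept nearly the same median ratio in each region, 3.69 (SCN), 3.96 (NAc) and 3.76 (PFC), and so did Aldoc, with 13.6, 12.1 and 12.2. Gjb6 had median ratios of 0.955 (SCN), 0.305 (NAc) and 0.593 (PFC), the order of Gfap over a narrower span. Slc1a2 had median ratios of 28.1 (SCN), 100.3 (NAc) and 89.4 (PFC), and the SCN libraries, at most 40.9, lay below all others, which were at least 73.2. S100b had median ratios of 1.401 (SCN), 0.796 (NAc) and 0.627 (PFC). Its SCN libraries, at least 1.047, lay above all PFC libraries, at most 0.699, and overlapped with the NAc, at most 1.085. Gja1 had median ratios of 5.675, 5.381 and 4.247 in the same order, and Slc1a3 of 12.73, 11.39 and 10.16. The ranges of both genes overlapped between all regions. Agt had a median ratio of 5.195 in the SCN, within a range from 3.73 to 7.96.

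**Figure D3:**
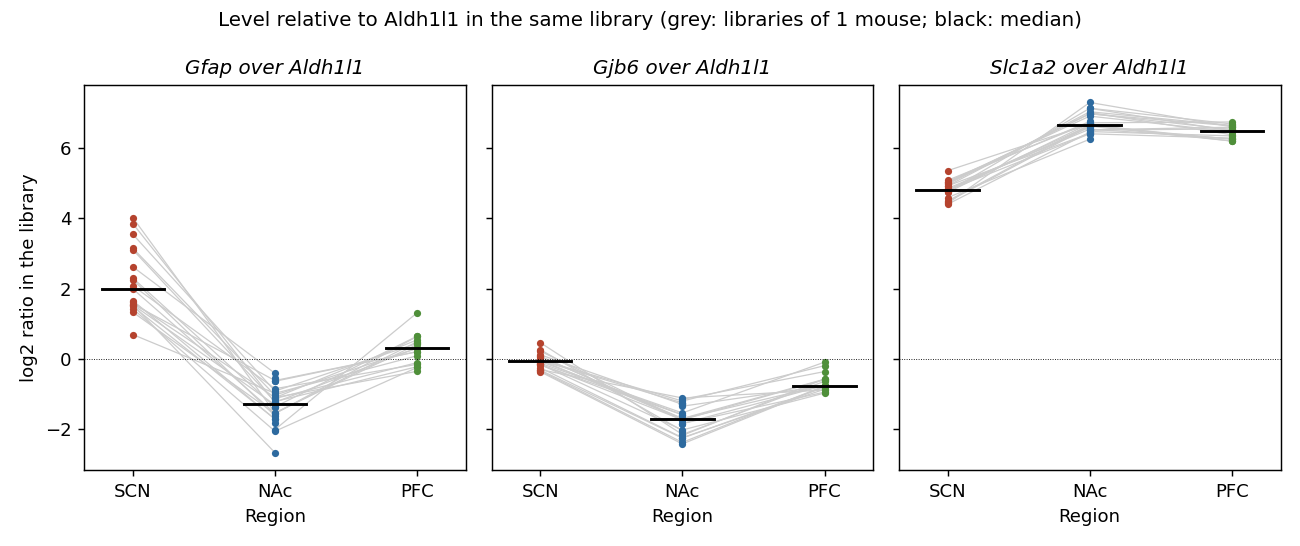
Log2 ratio of Gfap, Gjb6 and Slc1a2 to Aldh1l1 in each library by region, with libraries of a mouse joined in grey and medians in black. The median of Gfap falls from 1.99 in the SCN to -1.27 in the NAc with the PFC at 0.30, Gjb6 keeps that order, and Slc1a2 is lowest in the SCN at 4.81.

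Among the SCN libraries, 4 stood out for Gfap: J965 with 630 CPM, J1021 with 490 CPM, J1177 with 480.1 CPM and J1141 with 364 CPM, while the other 15 were at most 268 CPM. They come from both ranges of mouse numbers. They were chosen for their Gfap, so the rest is a description. The same 4 had the 4 highest Aqp4 levels, from 194 to 235 CPM against a median of 134 CPM. They held ranks 3 to 6 of the 19 for Agt, at 234 to 241 CPM, and ranks 3, 5, 6 and 18 for Aldh1l1. For Slc1a2 they lay between ranks 6 and 15. Mbp, the myelin gene, was also high in 3 of them, at ranks 2 to 4, and at rank 8 in J965. In the order J965, J1021, J1177 and J1141, the filament gene Vim was at ranks 1, 8, 3 and 5. The ependymal gene Foxj1 was at ranks 2, 12, 4 and 6, and the sum of the SCN list at ranks 1, 2, 6 and 8. What these markers have to do with the Gfap levels of these libraries was not tested.

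**Figure D4:**
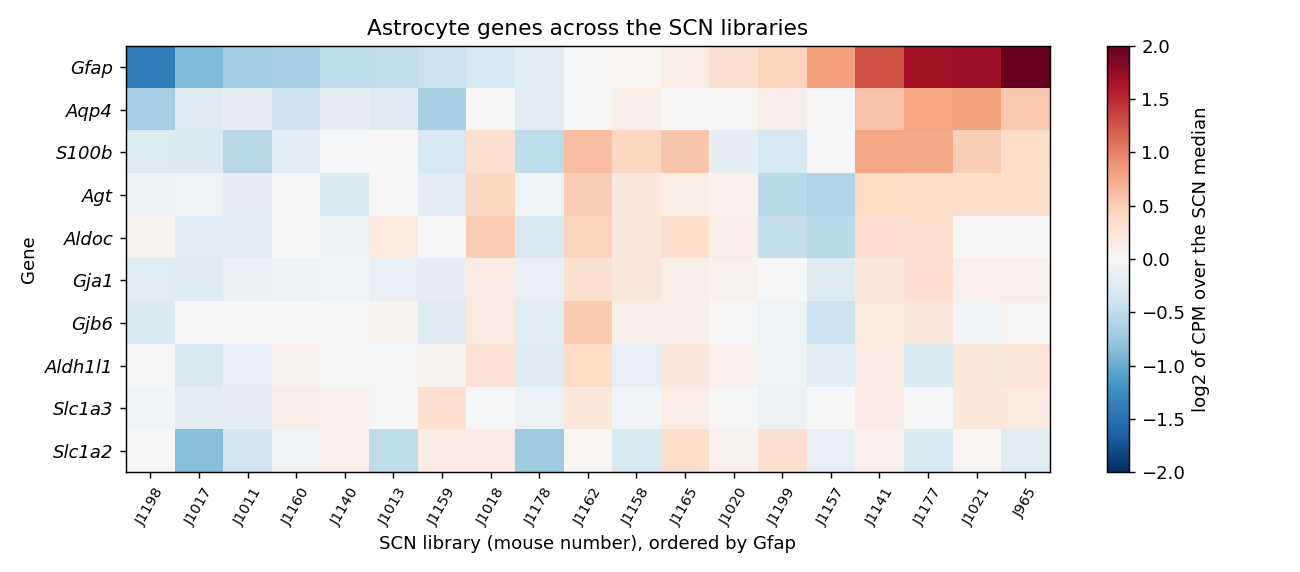
The 10 genes in the 19 SCN libraries as log2 of CPM over the SCN median of each gene, in columns ordered by Gfap. The rightmost 4 libraries, J1141, J1177, J1021 and J965, are also the 4 highest for Aqp4, while Slc1a2 and Aldh1l1 follow no such order.

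Whether the regional genes varied with a pan-astrocyte gene, with myelin or with other tissue from punch to punch was asked in 13 relations across the libraries of a region, and 5 passed a Benjamini-Hochberg adjusted p of 0.05. S100b with Mbp in the SCN was the strongest, with Pearson's r = 0.86 and Spearman's rho = 0.83 across 19 libraries (permutation p = 1e-05, the smallest that 100000 resamples can give, and 2e-05 for rho; adjusted p = 0.00013). Without the 2 libraries farthest from the median of Mbp, r was 0.91. Here and below, the median meant is that of the second gene of a relation. Libraries extreme for the first gene alone were kept. Within the lower range of mouse numbers (n = 7), r was 0.85 with an exact permutation p of 0.0167 that did not pass the adjustment, and within the upper range (n = 12) it was 0.90 (permutation p = 8e-05). In the NAc, S100b with Mbp had r = 0.39 and rho = 0.36 (adjusted permutation p = 0.0867), and in the PFC r = 0.13 (adjusted permutation p = 0.63). Whether the regions differ in this relation was not tested.

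Gfap with Mbp in the SCN had r = 0.60 and rho = 0.72 across 19 libraries (permutation p = 0.00644 and 0.00059, adjusted p = 0.0412), and r = 0.63 without the 2 farthest libraries. These were chosen by Mbp, so J965, the highest for Gfap and at rank 8 for Mbp, was kept. Within the ranges r was 0.69 (n = 7, exact permutation p = 0.0903) and 0.56 (n = 12, permutation p = 0.0609), and neither passed the adjustment. In the NAc the relation had r = 0.47 and rho = 0.39 (permutation p = 0.016 and 0.0522, adjusted p = 0.0441), but r was 0.44 without the 2 farthest libraries and no longer passed (adjusted permutation p = 0.0928). Within ranges it was 0.54 and 0.23. In the PFC, r was -0.27 (adjusted permutation p = 0.384).

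Gfap with Aldh1l1 passed in the NAc, with r = 0.47 and rho = 0.47 (permutation p = 0.017 and 0.0162, adjusted p = 0.0441), and not without the 2 farthest libraries (r = 0.43, adjusted permutation p = 0.0928). Within ranges r was 0.53 and 0.44, and neither passed. It had r = 0.22 in the SCN (adjusted permutation p = 0.433) and r = 0.39 in the PFC (adjusted permutation p = 0.192). The SCN value was 0.72 in the lower range (n = 7) and -0.21 in the upper range (n = 12), and neither passed. Agt with Aldh1l1 in the SCN had r = 0.58 and rho = 0.56 (permutation p = 0.0095 and 0.0145, adjusted p = 0.0412), and r = 0.52 without the 2 farthest libraries, which did not pass (adjusted permutation p = 0.0928). It was 0.94 in the lower range (n = 7, exact permutation p = 0.00317, adjusted p = 0.0413) and 0.44 in the upper range (n = 12, adjusted permutation p = 0.33). Neither Agt nor Gfap with the ependymal gene Foxj1 passed in the SCN (r = 0.16 and 0.30). In the lower and upper ranges r was -0.37 and 0.36 for Agt, and -0.059 and 0.61 for Gfap. The last had a permutation p of 0.0342 and did not pass the adjustment (adjusted p = 0.199). Gfap with the cortical gene Slc17a7 did not pass in the NAc (r = 0.42, adjusted permutation p = 0.0733).

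The genes most like each of 3 members were taken by Pearson's r of log2 CPM, as a description over libraries that share their depth and dissection. Over the 62 libraries, centred within each region, Gfap was most like Padi2 (r = 0.80), Myoc (0.74), Vim (0.72), Aqp4 (0.72) and Nbl1 (0.71) of 11132 genes. Aldh1l1 was far down that list, at 0.33. Aldh1l1 itself was most like Acot11 (0.83), Kcnj10 (0.82), Plpp3 (0.81), Eps8 (0.79) and Acsbg1 (0.78), with Slc1a3 at rank 18 (0.74). Agt, over the 19 SCN libraries and 12046 genes, was most like Mlc1, Aldh6a1 and Cd81 (each 0.92), Tsc22d4 (0.91) and Bmpr1b (0.90), with Aldoc at rank 12 (0.85) and Gfap at rank 1749 (0.38).

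The lists of other astrocyte genes show how the members sit among their functions. Of 111 listed genes that are not members, 92 were tested between the NAc and PFC, where 24 were higher and 28 lower in the NAc, with a median log2 fold change of -0.0095. Between the SCN and NAc, 55 of 87 were higher and 16 lower in the SCN, with a median of 0.54, and between the SCN and PFC, 54 of 87 were higher and 17 lower, with a median of 0.56. The shares of all genes called in each direction are given above with each comparison.

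The list of filament and reactive genes holds Vim, a filament partner of Gfap, and genes known to rise in reactive astrocytes, and 7 of its 13 genes were tested. In the NAc against the PFC, 5 of the 7 were lower and 0 higher, with a median log2 fold change of -0.87. S100a10 had medians of 4.27 CPM (NAc) and 16.1 CPM (PFC) (log2 fold change -1.91), and Vim 12.4 and 20.99 CPM (-0.89). Serpina3n, a serpin of reactive astrocytes, had 1.44 and 2.92 CPM (-0.87), and its lowest NAc library was at 0.341 CPM. In the SCN all 7 were higher than in the NAc, among them Serpina3n at 6.46 CPM against 1.52 CPM and Vim at 25.6 CPM against 13.1 CPM on the shared scale. Against the PFC, 4 were higher and S100a10 was lower (log2 fold change -0.87). The meningeal and mural list also had 5 of 6 genes lower in the NAc than in the PFC and 0 higher. Which cells gave the RNA of the filament and reactive genes was not tested.

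Of the 8 connexins listed, 4 were tested. Beside Gjb6 and Gja1 these included Gjc3, known from oligodendrocytes, which was higher in the NAc, at a median of 14.6 against 4.90 CPM (log2 fold change 1.52). The direction of Gjb6 was thus opposite to that of Gjc3. Of the 12 renin-angiotensin genes, to which Agt belongs, 5 were tested between the NAc and PFC. Mme, neprilysin, which cleaves peptides, exceeded its PFC level 11.1-fold in the NAc (log2 fold change 3.47), and the angiotensin-converting enzyme Ace (-0.64), the receptor Mas1 (-0.97) and the prorenin receptor Atp6ap2 (-0.36) were lower. In the SCN, Ace was higher than in the NAc (1.29) and PFC (0.64), and Atp6ap2 was lower (-0.35 and -0.71).

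Of 13 transport and ion genes, 11 were higher in the SCN than in the NAc and 0 lower, and 11 were higher and 1 lower than in the PFC. Slc6a11, the GABA transporter GAT-3, had medians of 302 CPM in the SCN on the shared scale, 44.9 CPM (NAc) and 36.2 CPM (PFC), 6.66-fold and 8.29-fold higher in the SCN. The bicarbonate transporter Slc4a4 exceeded its PFC level 2.21-fold in the NAc. Of the secreted and matrix genes, 10 of 12 were higher and 2 lower in the SCN than in the NAc. The matrix protein gene Sparc was at 459, 44.6 and 42.1 CPM and Itih3 at 134, 6.67 and 5.12 CPM in the SCN, NAc and PFC. Between the NAc and PFC, 4 of 14 were higher and 4 lower, with Chrdl1, the astrocyte factor that acts on glutamate receptors, at 3.48 against 15.4 CPM and the cytokine Il33 at 22.7 against 7.16 CPM.

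Metabolic genes split as well. Dio2, the deiodinase that activates thyroid hormone, was at 1.55 CPM in the SCN on the shared scale against 53.9 CPM (NAc) and 85.3 CPM (PFC), and its highest SCN library was J1199, the one with the highest striatal sum. In all, 12 of 20 metabolic genes were higher and 3 lower in the SCN than in the NAc, and 13 were higher and 3 lower than in the PFC. Among the transcription factors, 6 of 14 were higher and 5 lower in the SCN than in the NAc, and 5 higher and 6 lower than in the PFC. Lhx2 was at 1.91 CPM in the SCN on the shared scale against 10.1 CPM (NAc) and 22.05 CPM (PFC). Between the NAc and PFC, Nfix was lower in the NAc (28.8 against 109 CPM) and Id4 higher (90.9 against 26.6 CPM).

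Of the 13 receptors and channels, 6 were higher and 4 lower in the SCN than in the NAc, and 8 higher and 3 lower than in the PFC. The endothelin receptor Ednrb was at 81.5 CPM in the SCN on the shared scale against 28.7 and 18.9 CPM in the others, and the glutamate receptor Grm3 was at 21.9 CPM against 105 and 99.0 CPM. P2ry1, a receptor for ADP, exceeded its PFC level 27.7-fold in the NAc, at medians of 20.1 against 0.807 CPM. Many of these genes are also used by neurons or other glia, and their share from astrocytes was not tested.

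**Figure D5:**
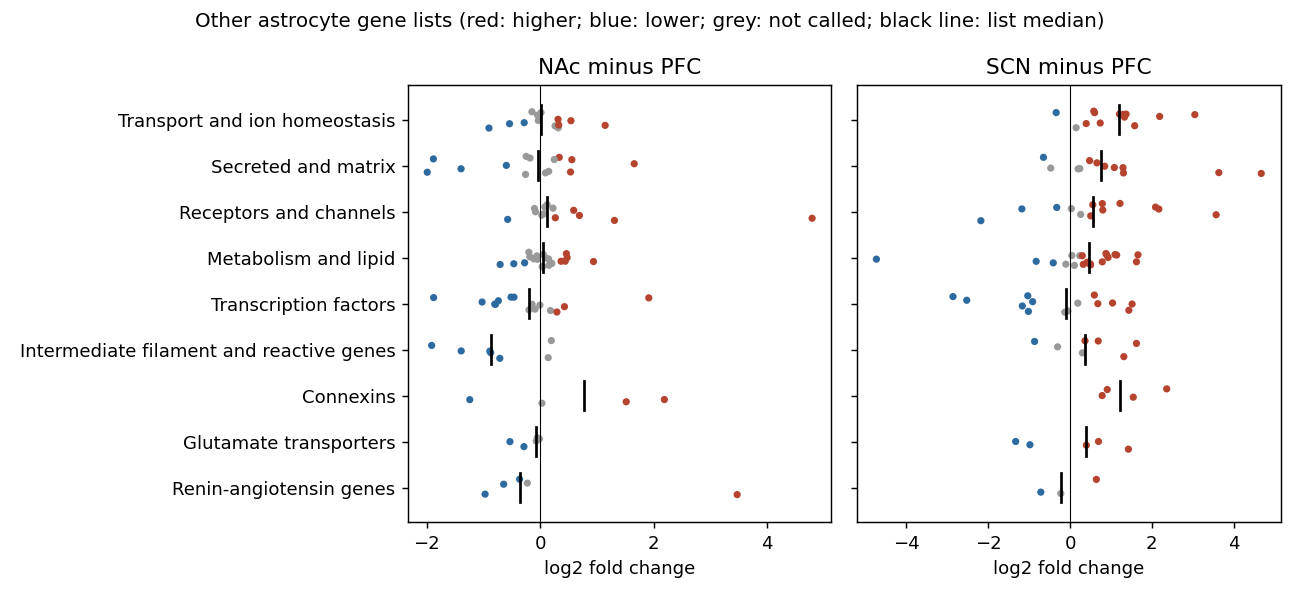
Log2 fold change of each tested gene of the 9 lists, members included where a list holds them, for NAc minus PFC and SCN minus PFC, with the median of each list as a black line; red is called higher, blue called lower and grey not called. The filament and reactive list lies mostly left of 0 for NAc minus PFC, with 5 of 7 lower, and the transport list mostly right of 0 for SCN minus PFC, with 11 of 13 higher.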

How the data were processed

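RNA of SCN (n = 19), NAc (n = 26) and PFC (n = 17) punches was analysed as gene counts. The authors made SmartSeq HT libraries from 10 ng of RNA, aligned reads to Ensembl GRCm38 with HISAT2, checked them with FastQC 0.11.7, and deposited HTSeq union-mode counts, not normalized, as 1 table of SCN libraries and 1 of NAc and PFC libraries, after leaving out low genes and chromosome Y. A mouse gave at most 1 library per region, so replicates are animals.

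The members and gene lists were chosen with earlier results of these data known. Genes outside the members were named if called and among the 4 with the largest change of their list. Agt has a row in the SCN table only, so its ratio and its relations in other regions were not run, which left 3 ratio comparisons and 13 relations. CPM were scaled by TMM within a table, or over the 11133 shared genes where said. Regions were tested with edgeR 4.0.16 (R 4.3.3), quasi-likelihood, filterByExpr (which removed 0 rows) and Benjamini-Hochberg adjustment, without a block. The SE was worked back from the test, as the absolute log2 fold change over the square root of its F statistic. The 95% intervals are 1.96 SE to each side. Ratios and relations used log2 CPM with a prior count of 2 and two-sided permutation tests with 100000 resamples (exact under 8 libraries). Total counts set the precision, and the smallest member count was 94 reads. Alternatives were DESeq2 1.42.0, its size factors, other filters, another prior count, ranges of mouse numbers (up to J1021 and from J1140, possible batches), the mouse as a block, libraries left out, and CPM of nuclear protein-coding genes. Leaving out NAc J1199, and mouse J1165 from the paired SCN tests, was added after seeing the data. By their labels, libraries of a mouse number are from the same animal and so are paired. SCN J1165, whose Xist disagrees with the other libraries of its mouse number, is included unless said. Deviations from the region means were correlated between the libraries of a mouse number at over 0.1 in 7 of 17 mice for NAc and PFC. The count was 3 of 19 for SCN and NAc, and 6 of 12 for SCN and PFC. The median correlations were 0.006, 0.0014 and 0.099 in that order, so the pairing rests on the labels. No libraries were duplicates (lowest chi-square per gene 13.1). The tests were checked on simulated data. Positions are from GENCODE M21, and promoters from RefSeq GRCm38.p6. Python 3.11.15, numpy 2.4.6, pandas 2.3.3, scipy 1.17.1 and matplotlib 3.10.9 were used.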

Additional observations from a re-analysis of the deposited data

How the results depend on the processing

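Of 297 fold changes of members under alternatives, 286 kept their direction and side of the call rule, 1 gained a call (Aqp4 between NAc and PFC in the upper range of mouse numbers, -0.28), 6 lost it and 4 changed sign without being called. The lost calls were those of Aldh1l1 (4) and Aqp4 (2) given with their results. The signs that turned were Gja1 between NAc and PFC, at -0.030 in the mice with both regions, -0.036 in those mice with the mouse as a replicate block and -0.038 in the upper range, and Slc1a2 at 0.015 in the upper range. Beyond Aqp4 between SCN and PFC, the replicate block changed no call of a member, with or without mouse J1165. All 19 alternatives of the Gfap to Aldh1l1 ratio kept direction and call. Counts of called genes, called members and passing relations were checked for size alone. Of 73 such counts, 69 stayed within a set fold of the main count and 4 moved beyond it.

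The relations were less stable. Of 13, 5 passed, against 2 by rank correlation, 2 without the 2 libraries farthest from the median, 2 within the lower mouse numbers and 1 within the upper ones, where fewer libraries were used. Values that turned sign were S100b with Mbp in the PFC (-0.034 by rank, -0.31 without the 2 farthest and -0.86 in the lower range, exact permutation, adjusted p = 0.0426, n = 7), Agt with Foxj1 in the SCN (-0.37 in the lower range and -0.14 without SCN J1140, J1165 and J1199), Gfap with Foxj1 in the SCN (-0.059 in the lower range) and Gfap with Aldh1l1 in the SCN (-0.21 in the upper range). Their cause was not tested. CPM levels of nuclear protein-coding genes were higher than the CPM given for all 28 medians, by the construction of that scale, and the other scales moved the 55 medians they gave by less than 1 SD. No alternative could be run for Agt outside the SCN.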
